A study of Mus musculus with 2 samples.

Results

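The peaks described here are sites of EP300 binding in mouse fetal liver that lie at the annotated start of a noncoding gene and at no protein-coding start. A peak was taken when its summit lay within 1 kb of a transcription start site (TSS) of a gene that is not protein_coding in GENCODE vM21 and more than 1 kb from every protein_coding TSS. The rule found 550 of the 17043 peaks of the authors' optimal list on the 19 autosomes and X, or 3.23% (95% Wilson interval 2.97 to 3.50, counting error only), and 12.3% of the 4473 optimal peaks within 1 kb of any TSS. The material was liver of B6NCrl mouse embryos of both sexes at 14.5 days, with no transgene or treatment named in the labels, and the tissue of several dissections was powdered and pooled. The 2 ChIP-seq libraries made with an EP300 antibody form 1 group. They are numbered as biological replicates, but they carry the same biosample label, so differences between them may be technical. There is no second condition and hence no test between groups: counts and medians are given beside the same values over all optimal peaks. The files hold peak lists without read totals, so the depth of the libraries is unknown.

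EP300 is a histone acetyltransferase and coactivator that is brought to active enhancers and promoters by transcription factors. Many active enhancers are themselves transcribed, and genome annotations hold large numbers of long noncoding RNAs, whose starts can lie at classical promoters or at enhancers. Small nuclear RNAs, which splice pre-mRNA, have compact promoters of their own, and the annotated start of a microRNA (miRNA) gene is the start of its hairpin and not of its primary transcript. A pseudogene's annotated start is the end of a copied sequence and often no promoter at all. In fetal liver, the site of red blood cell formation at this age, GATA factors guide EP300 to many erythroid enhancers.

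Bases around the summit are printed first for the strongest peak of each of 5 gene types and the next strongest lincRNA and antisense peaks, to show the letters under high signal; of the pseudogene peaks, the second strongest is shown. They are the strongest of all (4930405O22Rik, a sense-intronic transcript, chr17:63312487-63312587, minus strand), the processed pseudogene Gm12529 (chr4:59533414-59533514, plus), the long intergenic RNAs Gm31452 (chr13:107063597-107063697, plus) and Gm14221 (chr2:160619552-160619652, minus), the antisense transcripts Gm28857 (chr1:130741425-130741525, minus) and Gm14453 (chr2:173035183-173035283, minus), and the strongest at a miRNA, Mir5123 (chr4:40849670-40849770, minus). Each run holds 101 bases of GRCm38 (mm10), 50 to either side of the summit, 5′ to 3′ on the strand of the noncoding gene. Capitals mark GATA sites (GATA with A or T before it and A or G after it, on either strand), and in 4930405O22Rik a CACCC box, since the 2 GATA sites of that peak lie outside the printed bases. The GATA site of the Gm14221 peak also lies outside them.
4930405O22Rik: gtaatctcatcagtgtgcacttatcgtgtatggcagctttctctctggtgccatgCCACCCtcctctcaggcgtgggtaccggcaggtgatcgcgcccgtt
Gm12529: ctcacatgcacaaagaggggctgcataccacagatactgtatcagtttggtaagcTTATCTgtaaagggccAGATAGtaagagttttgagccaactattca
Gm31452: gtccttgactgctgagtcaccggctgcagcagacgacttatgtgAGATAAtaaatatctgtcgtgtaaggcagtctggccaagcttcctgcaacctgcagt
Gm14221: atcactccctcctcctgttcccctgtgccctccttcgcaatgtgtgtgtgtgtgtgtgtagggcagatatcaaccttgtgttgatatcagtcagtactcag
Gm28857: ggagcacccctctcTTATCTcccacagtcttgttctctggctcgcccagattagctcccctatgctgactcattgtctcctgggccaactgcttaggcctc
Gm14453: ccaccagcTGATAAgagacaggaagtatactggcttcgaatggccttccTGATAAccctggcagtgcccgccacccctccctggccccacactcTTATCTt
Mir5123: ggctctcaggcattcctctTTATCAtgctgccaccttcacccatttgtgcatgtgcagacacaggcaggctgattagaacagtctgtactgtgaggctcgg
A GATA site stood within 50 bases of the summit in 5 of these 7 peaks, on either strand of the gene, beside 60.0% of all 550 peaks. The Gm31452 summit lay 46 bp from its start and the others 148 to 717 bp.

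The next 6 runs come from peaks whose summit lay within 50 bp of the start of a well-studied noncoding gene. They were picked as examples and not by rank. They are Malat1 (chr19:5802638-5802738, minus strand), the U1 gene Rnu1a1 (chr11:87422798-87422898, plus), the U11 gene Rnu11 (chr4:132270113-132270213, minus), the miRNA host gene Mir142hg (chr11:87755509-87755609, plus), the small nucleolar RNA host gene Snhg12 (chr4:132308576-132308676, plus) and the 7SK gene Rn7sk (chr9:78175541-78175641, minus). Capitals mark an ETS core (CCGGAA on either strand) in Malat1 and a CACCC box (CCACCC) in Mir142hg.
Malat1: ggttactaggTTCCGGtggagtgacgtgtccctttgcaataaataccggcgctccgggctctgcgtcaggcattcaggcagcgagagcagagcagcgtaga
Rnu1a1: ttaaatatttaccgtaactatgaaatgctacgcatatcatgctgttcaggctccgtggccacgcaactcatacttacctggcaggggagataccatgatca
Rnu11: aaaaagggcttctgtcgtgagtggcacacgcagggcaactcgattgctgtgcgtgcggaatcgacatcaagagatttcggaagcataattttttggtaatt
Mir142hg: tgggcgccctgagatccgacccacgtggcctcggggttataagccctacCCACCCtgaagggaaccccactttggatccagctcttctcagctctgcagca
Snhg12: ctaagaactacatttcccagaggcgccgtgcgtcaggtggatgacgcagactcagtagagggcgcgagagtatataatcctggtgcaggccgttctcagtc
Rn7sk: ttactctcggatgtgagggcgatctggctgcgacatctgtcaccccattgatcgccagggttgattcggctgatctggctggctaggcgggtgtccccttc
None of these 6 runs holds a GATA site, which is not general: of all 132 peaks within 100 bp of a noncoding start, 53.0% had one within 100 bp of the summit, Snhg12 among them.

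For the miRNA genes, 14 of the 28 nearest genes were found by symbol in the RefSeq table (GRCm38.p6). The 21 mature sequences read for 13 of them had 21 different seeds, so no seed was shared. The mature forms of Mir5123, which has the strongest peak, and of 5 well-studied miRNAs are printed with the seed (bases 2 to 8) in capitals. No mature sequence was read for the genes without a match, so their seeds were not compared.
mmu-miR-5123: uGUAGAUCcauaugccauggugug
mmu-miR-101b-3p: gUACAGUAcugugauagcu
mmu-miR-210-3p: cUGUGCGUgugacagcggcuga
mmu-miR-21a-5p: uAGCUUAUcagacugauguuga
mmu-miR-22-3p: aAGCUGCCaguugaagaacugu
mmu-miR-142a-3p: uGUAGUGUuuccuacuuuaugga

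Each peak was given the type of the noncoding gene with the nearest TSS. Long intergenic RNAs (lincRNA) held 162 peaks (29.5%, 25.8 to 33.4), antisense transcripts 92 (16.7%), miRNA genes 32 (5.82%), pseudogenes 67 (12.2%) and other types 197 (35.8%). With a window of 2.5 kb in place of 1 kb the pseudogene share was 20.8%. The other types were led by 73 peaks at TEC genes, transcripts awaiting experimental testing, 49 at processed transcripts, 34 at small nuclear RNAs (snRNA), 11 at small nucleolar RNAs and 11 at miscellaneous RNAs. Smaller numbers lay at sense-intronic transcripts (7), T cell receptor V and J segments (4 and 2), entries annotated as ribosomal RNA (3), bidirectional promoter transcripts (2) and a small Cajal body RNA (1). The receptor segments are gene segments and not noncoding RNAs, and count here only because their annotated type is not protein_coding. Of the 550 peaks, 71 had more than 1 noncoding gene within 1 kb, and in 34 of them these were of different types. The 550 peaks had 482 different nearest genes, of which 412 carry only a provisional name.

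Most noncoding genes had no such peak: 535 of 32088 annotated (1.67%, 1.53 to 1.81) lay within 1 kb of one. Of the 5305 annotated lincRNA genes, 151 (2.85%, 2.43 to 3.33) lay within 1 kb of one of these peaks. The share was 2.87% of 2958 antisense genes (2.33 to 3.54), 1.50% of 2196 miRNA genes (1.07 to 2.10), 0.527% of 12713 pseudogenes (0.415 to 0.669) and 2.23% of 8916 other genes (1.95 to 2.56). Of 21755 protein-coding genes, 15.5% lay within 1 kb of a coding promoter peak, which may also lie at a noncoding start. The noncoding shares leave such shared peaks out, so the coding and noncoding shares are not like measures. Among the noncoding types, pseudogenes were the least often met by these peaks, and lincRNA and antisense genes could not be told apart by their intervals. A gene was counted through any of its annotated transcript starts, and starts per gene were not matched between the types.

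Peak signal, the peak caller's value as deposited, is used only within a list. Over the 550 peaks it ran from 5.27 to 495, with a median of 36.5, beside 38.5 over all optimal peaks, 31.1 over the 3923 coding promoter peaks and 42.2 over the 12570 distal peaks, which lie beyond 1 kb of every TSS. By type, the median was 61.4 for pseudogenes, 41.2 for lincRNAs, 35.6 for antisense transcripts, 32.5 for miRNA genes and 31.9 for the other types. The middle range (25th to 75th percentile) of the pseudogene peaks was 25.8 to 118 and that of the miRNA peaks 24.2 to 46.9, so the types overlapped widely. The strongest decile of the optimal list held 51 of the 550 peaks (9.27%), of which 23 were at lincRNAs, and the weakest decile held 58 (10.5%). Among the 1000 strongest optimal peaks were 33 of them: 15 at lincRNAs, 7 at other types, 6 at antisense transcripts, 5 at pseudogenes and 0 at miRNA genes.

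**Figure D1:**
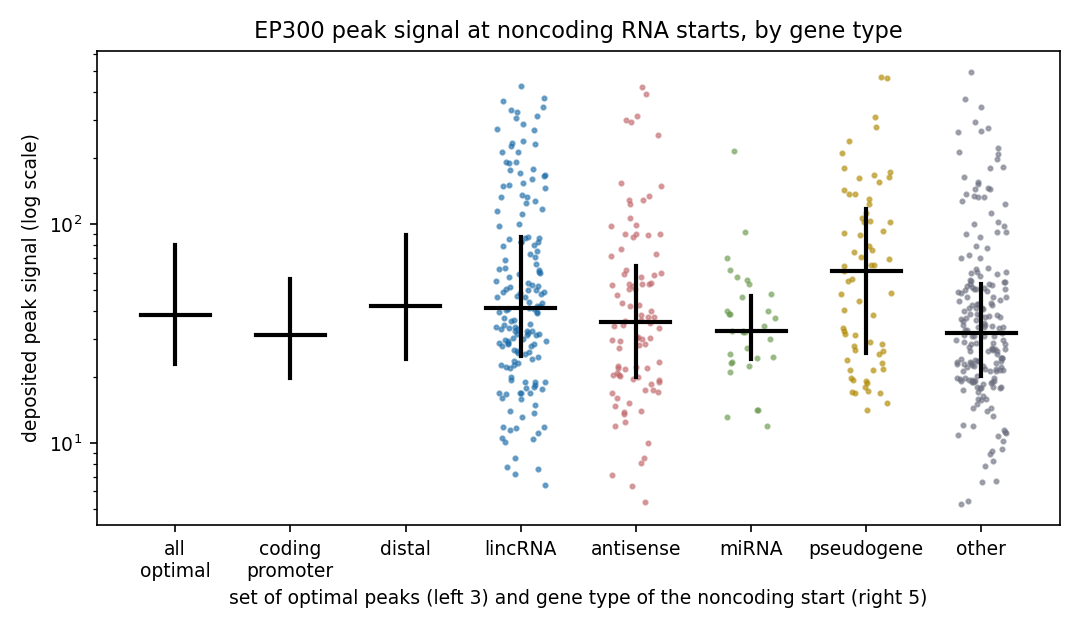
Deposited peak signal (log scale) of all optimal, coding promoter and distal peaks (median and 25th to 75th percentile as black lines) and of each of the 550 peaks by gene type (points, with the same lines). The pseudogene peaks have the highest median, 61.4, and the miRNA peaks hold 1 value above 100.

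Both libraries had a summit within 100 bp in 450 of the 550 peaks (81.8%, 78.4 to 84.8), close to the 84.3% of all optimal peaks, and 77.5% were also in the conservative list, beside 78.4% of all. Support in both libraries was found for 62 of 67 pseudogene peaks (92.5%), 131 of 162 lincRNA peaks (80.9%), 75 of 92 antisense peaks (81.5%), 25 of 32 miRNA peaks (78.1%) and 157 of 197 others (79.7%). Only 4 peaks had a summit in neither library's list within that distance. Here and below, a peak said to be in a single library, or in neither, lacked a summit within 100 bp in the other lists. A peak of such a list with a more distant summit can still overlap it. Across the 450 peaks, which share the 2 libraries, the signals had a Spearman rho of 0.838 and a Pearson r of 0.870 on the log2 scale; over all 14360 such optimal peaks the values were 0.853 and 0.869. Among the 33 peaks in the top 1000, all ranked within the top 2000 of each library, whereas of the 58 peaks in the weakest decile only 15 (25.9%) had a summit in both. The same shares are not given for all optimal peaks of equal strength, so neither is shown to be particular to noncoding starts.

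**Figure D2:**
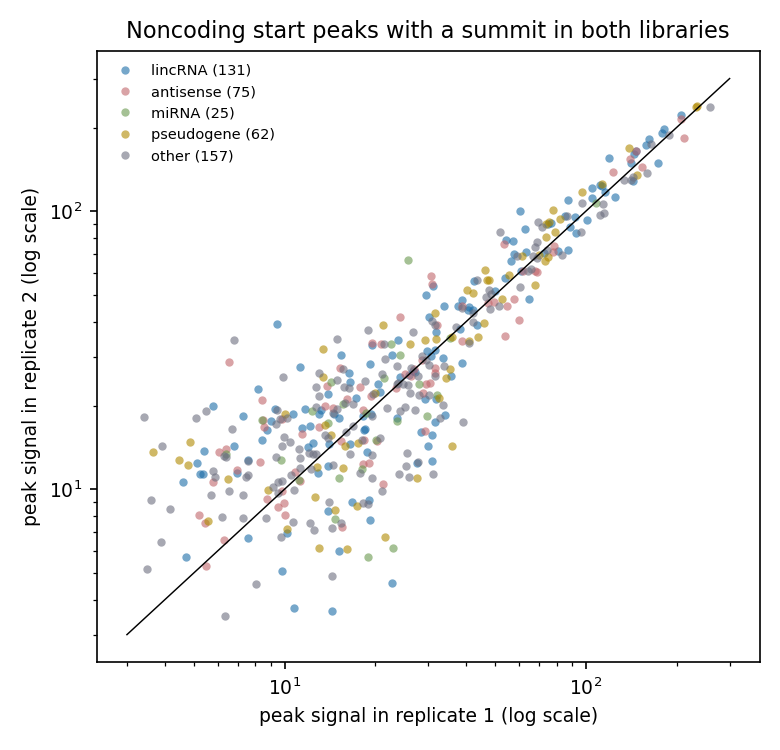
Peak signal in replicate 1 against replicate 2 (both log scale) for the 450 peaks with a summit within 100 bp in both libraries, coloured by gene type, with the line of equal signal. The points tighten around the line at high signal and spread at low signal.

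The summits gathered near the annotated start. Of the 550, 86 lay within 50 bp and 132 within 100 bp of it, 220 at over 100 to 500 bp and 198 at over 500 to 1000 bp; 300 were upstream and 250 downstream along the gene. Summits of lincRNA peaks were within 100 bp in 45 of 162 and those of the other types in 59 of 197, but those of miRNA peaks in only 2 of 32 and those of pseudogene peaks in 8 of 67. The median distance was 564 bp for miRNA genes, 442.5 bp for antisense transcripts, 440 bp for pseudogenes, 312 bp for lincRNAs and 225 bp for other types.

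**Figure D3:**
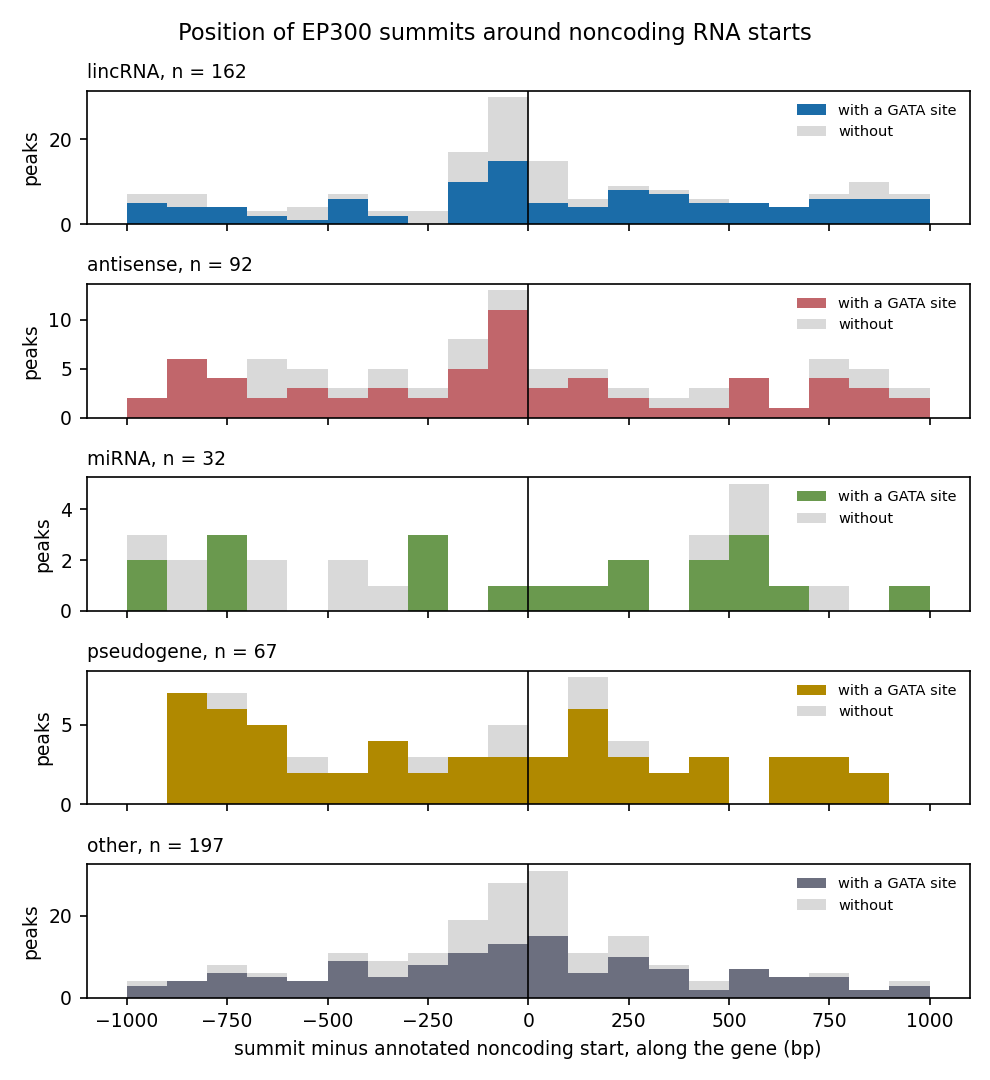
Number of peaks per 100 bp against the position of the summit along the noncoding gene (bp, negative upstream), by type, with peaks that hold a GATA site within 100 bp of the summit in colour and the rest in grey. The lincRNA and other panels peak around the start, where grey is most frequent, and the miRNA and pseudogene panels do not.

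A GATA site lay within 100 bp of the summit in 379 of the 550 peaks (68.9%, 64.9 to 72.6), beside 74.7% of all optimal peaks, 38.3% of coding promoter peaks and 86.3% of distal peaks. Over all 550, the share was higher farther from the noncoding start: 53.0% (44.6 to 61.3) at 0 to 100 bp, 69.5% (63.2 to 75.3) at over 100 to 500 bp and 78.8% (72.6 to 83.9) at over 500 to 1000 bp. The difference between the outer bins was 25.8 percentage points, with a 95% Newcombe interval of 15.4 to 35.7 for counting error. In lincRNA peaks the 3 shares were 44.4%, 71.2% and 74.1%, and in the other types 47.5%, 65.9% and 88.0%. In pseudogene peaks they were 75%, 86.2% and 93.3%. The order did not hold in every type: antisense peaks had 77.8%, 62.5% and 73.8%, and of the miRNA peaks 2 of 2, 8 of 12 and 10 of 18 (55.6%) held a site. Coding promoter peaks had 23.5%, 36.0% and 71.4% at the same distances from their own starts. Those within 100 bp of a coding start thus held a GATA site less often than those within 100 bp of a noncoding one, with Wilson intervals that did not overlap (21.5 to 25.6 against 44.6 to 61.3). These 2 sets also differed in base composition, with a median GC content of 61.2% at coding and 52.5% at noncoding starts. How far composition alone bears on the GATA shares was not tested.

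**Figure D4:**
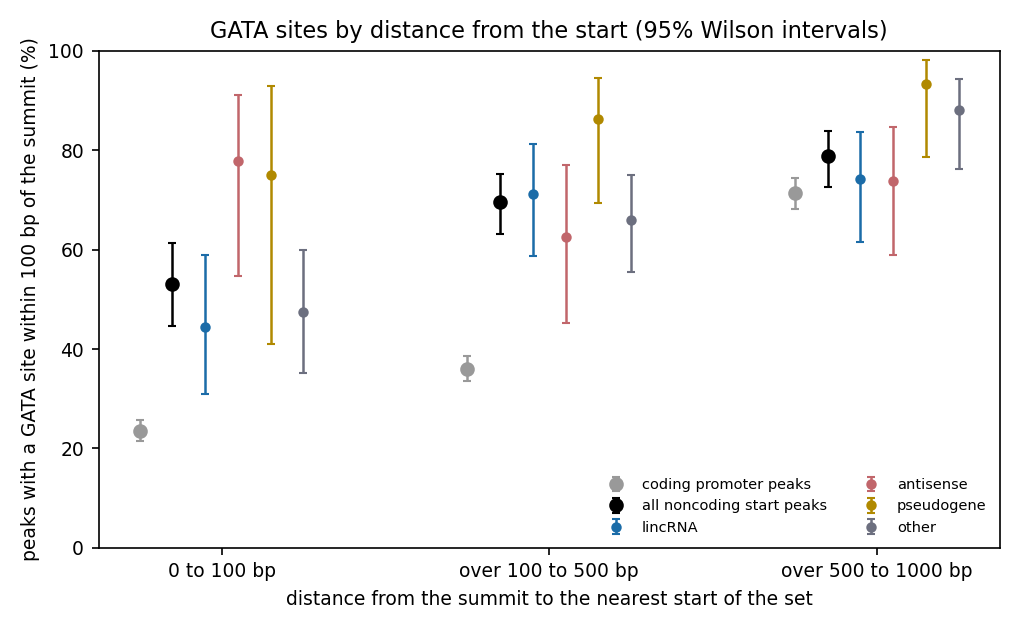
Share of peaks with a GATA site within 100 bp of the summit (%, with 95% Wilson intervals) against the distance from the summit to the nearest start, for coding promoter peaks (grey), all 550 noncoding start peaks (black) and 4 gene types. The black points climb from 53.0% to 78.8%, and the grey points from 23.5% to 71.4%.

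The GC box, the ETS core, GC content and CpG content were highest near the start over the same 3 distance bins, and the CCAAT box, at 21.2%, 20.5% and 19.7%, differed by less than its intervals. The GC box (GGGCGG), a site of SP and KLF factors, was in 13.6%, 12.3% and 4.55% of the peaks, and the ETS core in 10.6%, 4.55% and 3.03%. By type, at 0 to 100 bp the ETS core was in 17.8% of lincRNA (9.29 to 31.3) and 10.2% of other peaks (4.74 to 20.5). It was in 0 of 18 antisense, 0 of 2 miRNA and 0 of 8 pseudogene peaks there. The GC box was in 17.8% and 15.3% of the former and in 1, 0 and 0 peaks of the latter. For both motifs the intervals of the types overlapped, so the types could not be told apart. Median GC content was 52.5%, 47.8% and 47.3%, and the median ratio of observed to expected CpG was 0.40, 0.29 and 0.26. Over all 550 the GC box stood in 9.82% (12.4% of all optimal peaks), the ETS core in 5.45% (5.87%), the CCAAT box in 20.4% (21.6%) and the AP-1 core (TGANTCA), the site of NFE2 as well as AP-1, in 10.5% (7.58%). A CTG with a GATA site 7 or 8 bases on, the composite motif bound by TAL1 together with GATA1, was in 15.6%, beside 22.4% of all optimal peaks; every composite also counts as a GATA site. The CACCC box stood in 18.4% (19.99%). At 0 to 100 bp the CACCC box was in 23.5% (17.1 to 31.4) and the AP-1 core in 12.9% (8.20 to 19.7). Both were thus also more frequent near the start than over all 550, though these intervals include the overall shares. In lincRNA peaks the CACCC box fell with distance, at 33.3%, 20.3% and 12.1%. It did not fall steadily in antisense (22.2%, 18.75% and 23.8%), pseudogene or other peaks. The motifs of NRF1, YY1 and CTCF were rare, at 4, 3 and 13 of the 550 peaks, beside 127, 251 and 276 of all 17043. A motif match describes the letters and does not show that a factor was bound.

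Peaks with and without a GATA site differed in strength. The 379 with a site had a median signal of 48.6 (25th to 75th percentile 27.6 to 103), and the 171 without one 23.7 (16.8 to 35.4). Both libraries had a summit in 90.8% of the former and 62.0% of the latter. Of the 51 peaks in the strongest decile, 50 held a GATA site, the exception being the lincRNA Gm33497 (signal 235, 22773 bp from Stk3), which holds a CACCC box; it was named after its value was seen. In the weakest decile 17 of 58 (29.3%) held one. Over all optimal peaks 74.7% held a GATA site and 84.3% had a summit in both libraries. The same splits are not given for all optimal peaks, so the difference is not shown to be particular to noncoding starts.

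Of the 550 peaks, 355 (64.5%) lay outside protein-coding genes, 172 in introns (31.3%, beside 49% of all optimal peaks), 18 in untranslated or noncoding exons and 5 in coding exons. Inside coding genes the noncoding gene ran against the host gene in 117 peaks and along it in 76, and 2 peaks lay in host genes of both directions. Antisense transcripts made up 61 of the peaks inside coding genes and lincRNAs 4, which the definitions of the types largely fix. The nearest protein-coding start was 1 to 2.5 kb away in 77 peaks, 29 of them with the noncoding and coding genes head to head, 2.5 to 10 kb in 157, 10 to 50 kb in 203 and beyond 50 kb in 113. Another optimal summit lay within 12500 bp in 67.8%, beside 63.8% of all optimal peaks; for miRNA peaks this was 27 of 32 (84.4%) and for antisense peaks 52 of 92 (56.5%).

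The 5 strongest lincRNA peaks all held a GATA site and ranked 95 to 394 in replicate 1 and 50 to 257 in replicate 2. The peak 46 bp upstream of Gm31452 (chr13:107063488-107063802) had a signal of 428, with 207 in replicate 1 and 222 in replicate 2, and its nearest coding gene was Kif2a, a kinesin, 41521 bp away. The peak 369 bp into Gm14221 (chr2:160619474-160619736) had 379, with 181 and 197 in the libraries, and lay 26286 bp from Top1, which encodes DNA topoisomerase I. Gm8013 (366, with 179 and 191; 76490 bp from Bmp2k) had such a composite motif of CTG and GATA, and Gm43121 (343, with 162 and 182; 50561 bp from Tent5c) did not. In these 4 peaks replicate 2 had the higher value on its own scale.

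At 5430401H09Rik, a lincRNA 55361 bp from Pik3cg, which encodes a phosphoinositide 3-kinase subunit, 3 peaks lay around 1 start. The peak 609 bp downstream had a signal of 333 (158 and 174 in replicates 1 and 2), the peak 26 bp upstream 133 (54.2 and 79.0), and the peak 598 bp upstream 6.40 with no summit in either library. The 2 stronger peaks stood in both libraries and the weakest in neither. Altogether 61 genes had 2 or more of these peaks, with 129 of the 550, and none had more than 3.

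Among well-studied long noncoding RNAs, Pvt1, the neighbour of Myc, had the strongest peak. It lay 712 bp downstream of an internal Pvt1 start and 235893 bp from Myc (chr15:62223195-62223431), with a signal of 229 and 115 and 117 in the libraries, and held 4 GATA sites. A second Pvt1 peak, 450 bp from another start and 112057 bp from Myc, had 16.9, with 5.36 and 11.3. Malat1, an abundant nuclear RNA, had a peak 16 bp upstream of its start with 97.8 (42.6 and 56.1) and no GATA site, and a weaker one 225 bp upstream with 13.7 (4.72 and 5.70). At Mir142hg, the host transcript of a blood-cell miRNA, the peak 18 bp upstream had 79.3 (33.9 and 45.7). The Malat1 and Mir142hg peaks at the start lacked GATA sites, while both Pvt1 peaks held them.

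Lockd, a transcript downstream of the cell-cycle inhibitor gene Cdkn1b that has been studied in erythroblasts, had 3 peaks; it was added after the values were seen. Their signals were 29.1 (9.31 and 19.4 in replicates 1 and 2) at 155 bp upstream, 24.7 (5.78 and 19.9) at 10 bp upstream and 19.3 (6.98 and 11.4) at 844 bp upstream. The value in replicate 2 was the higher in all 3. Of the 3, the peak at 844 bp alone held a GATA site, and the summits nearest to the start held GC boxes. They lay 7735 to 8632 bp from Cdkn1b. Ftx, a regulator of Xist, had a weak peak 309 bp into the gene with 14.9, found in replicate 1 only (11.6).

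Antisense peaks were led by Gm28857, which starts inside AA986860, 1203 bp from that gene's start. Its peak, 148 bp upstream (chr1:130741325-130741629), had a signal of 425 with 208 and 215 in the libraries, 2 GATA sites and an AP-1 core. Gm14453, 12183 bp from Rbm38, an RNA-binding protein gene, had 395 (212 and 184) and 3 GATA sites, 1 of them in a composite. Gm10603 in C2cd3 had 313 (147 and 165), and AC167169.1 in Dscam 295 (140 and 154). The 4 peaks named here held at least 2 GATA sites each, and all but that at Gm14453 lay in introns of protein-coding genes.

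Airn, the imprinted transcript that silences Igf2r on the paternal chromosome, had 2 antisense peaks. The stronger lay 134 bp downstream of an annotated start outside Igf2r (chr17:12815995-12816100), with a signal of 90.3 and 47.5 and 46.9 in the libraries. The weaker, in an Igf2r intron 877 bp upstream of another Airn start (chr17:12740264-12740603), had 29.3, with 19.06 and 12.46. Which of these annotated starts the imprinted transcript uses was not tested here, so the stronger peak cannot be assigned to its promoter. Each held 1 GATA site. Hnf4aos, antisense to the hepatocyte factor gene Hnf4a, had a weak peak with 14.7 (5.46 and 7.55) and no GATA site.

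Pseudogene peaks had the highest share of GATA sites, 59 of 67 (88.1%, beside the 86.3% of distal peaks), and no ETS core. The strongest were at Gm17669 in an intron of Spire1 on chromosome 18 (signal 470, with 234 and 239 in the libraries) and Gm12529 in an intron of Ptbp3, a splicing regulator (464, with 232 and 237; 3 GATA sites). Gm16198 in Gipc2 had 308 (139 and 168), Gm17940 278 (147 and 135) and Gm18001 in Tecr, an enzyme of fatty acid elongation, 239.8 (113 and 125). All 5 are processed pseudogenes, copies of spliced mRNA, as were 52 of the 67, and their summits were 449 to 814 bp from the annotated start. The 31 summit bases occurred more than once in the genome in 4 of 67 (5.97%), beside 1.5% of all optimal peaks and 14 of the 550 (2.55%).

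The strongest miRNA peak was 418 bp into Mir5123, in an intron of B4galt1, a galactosyltransferase gene (chr4:40849615-40849820). Its signal was 216 with 108 and 107 in the libraries, and it held 1 GATA site. Gm25931, a hairpin in the same intron, had a peak with 69.8 (35.3 and 35.1), 3331 bp from the B4galt1 start. Gm25069 in Crim1 had 91.8, but 25.6 in replicate 1 against 67.0 in replicate 2, and Gm44308 in Sgpl1 had 61.9 (32.0 and 21.7). Gm27711 in Tom1l2 had 57.4 (24.1 and 30.3). These 5 peaks all lay in introns of protein-coding genes and all held GATA sites.

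Of the 16 miRNA peaks whose gene matched the RefSeq table, those at well-studied miRNAs were of middling or low signal. Mir101b in Rcl1 had 47.7 (29.8 and 18.3) and 2 GATA sites; Mir210, induced by hypoxia, 46.7 (21.5 and 25.2) and none. Mir21a, in an exon of Vmp1 with the summit 36 bp from the hairpin start, had 32.1 (13.9 and 17.3). Mir22 had 29.9 (18.1 and 11.9) in a Tlcd2 intron, 1278 bp from that gene's start. Mir142 had 24.6, found in replicate 2 only (20.6), and Mir142b shared this peak. The remaining matched genes, Mir6415, Mir1894, Mir496b, Mir3075, Mir1933, Mir6360, Mir6398 and Mir7052, had signals from 11.9 to 39.9.

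Of the genes with no match, Mir1927 in Rabgap1l had 55.4 (22.5 and 33.2) and 2 GATA sites. Gm27686, Gm26455, Gm25070, Gm44335, Gm47299, Gm25036, Gm22824 and Gm44394 had signals between 13.1 and 53.4. The entry n-TStga1, by its name a transfer RNA gene though typed as miRNA, had 38.9 (15.7 and 20.2) and 14.1 (6.88, replicate 1 only); the 31 bases at the stronger summit occur 8 times in the genome. A GATA site was found in 20 of the 32 miRNA peaks (62.5%).

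Among the other types, the strongest peak of all 550 lay 434 bp into 4930405O22Rik, a transcript inside an intron of Fbxl17 (chr17:63312351-63312743). It had a signal of 495, ranks of 14 and 33 in the libraries, and signals there of 259 and 237. Traj15, a joining segment of the T cell receptor alpha locus, had a peak with 374 (188 in each library) and 4 GATA sites, 49398 bp from Dad1. Gm24204, an snRNA copy in Rpl3, had 342 (165 and 175), Gm23954, a miscellaneous RNA in Pstpip2, 294 (159 and 137), and the processed transcript 9830144P21Rik, 19143 bp from the phosphate transporter gene Slc20a1, 276 (143 and 133). All 5 held a GATA site. The TEC peaks held one in 57 of 73 (78.1%) and lay in introns in 41 (56.2%), and the processed transcripts in 27 of 49 (55.1%) and 8 (16.3%).

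The 34 snRNA peaks lay at 25 genes, with 15 summits within 100 bp of the start. Rnu1a1, which encodes the U1 RNA of the spliceosome, had peaks of 100.1 (47.9 and 52.0) and 58.9 (29.5 and 29.3), 19 bp upstream and 180 bp downstream of the start. Rnu11, a part of the minor spliceosome, had 92.3 (43.7 and 56.4) at 50 bp downstream and 30.8 at 160 bp upstream with no summit in either library. Rnu5g had 52.5 (21.3 and 33.4) and Rnu2-10, a U2 gene, 33.6 (14.9 and 19.5) and 19.9 (15.4 and 7.58). A GATA site was found in 17 of the 34 (50%) and a CCAAT box in 11 (32.4%). For the 2 spliceosomal genes with the strongest peaks at the start, Rnu1a1 and Rnu11, none of the peaks held a GATA site.

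A pair of limits bears on the snRNA peaks. In 5 of 34 (14.7%) the 31 summit bases occur more than once in the genome, up to 147 times at Gm26316, and the sources used here do not give how reads with several matches were treated. In 10 of 34 (29.4%) a stronger optimal peak lay within 500 bp, beside 6.28% of all optimal peaks, so that several entries can stem from 1 site.

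Of the genes that RNA polymerase III transcribes, Rn7sk, whose RNA holds back the elongation factor P-TEFb, had 42.9 (15.6 and 27.1) at 42 bp into the gene, and the summit bases occur 8 times in the genome. Rny3, a Y RNA, had 24.4 (10.4 and 14.8). The vault RNA gene Vaultrc5 had 21.6, in replicate 1 only (17.8). Rn7s2, a signal recognition particle RNA gene, lay 636 bp from a peak with 25.4 (18.9 and 5.70) whose nearest start is that of Gm47299. Of the 22 annotated genes in the list of small nuclear and polymerase III RNAs, 8 had such a peak (1.67% of all annotated noncoding genes did), 5 had a peak shared with a coding start and 9 had no optimal peak within 1 kb.

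Small nucleolar RNA host genes, whose introns release RNAs that guide ribosomal RNA modification, had such a peak in 8 of 16 annotated genes, beside the 1.67% of all noncoding genes, with 2 more shared with a coding start. Snhg12 had 33.3 (18.4 and 16.4) at 3 bp from its start and Snhg17 30.7 (14.0 and 15.3) at 42 bp. Epb41l4aos had 31.6 in replicate 1 only (22.8), Snhg8 25.5 (3.93 and 14.3), and Snhg15 24.2 (10.2 and 18.0) and 13.9 (9.25 in replicate 2 only). Snhg5 had 19.1 and 18.0, the former found in replicate 2 only (16.4) and the latter in replicate 1 only (9.55). Zfas1 had 11.2 in replicate 1 only (8.02), and Gas5 lay 262 bp from a peak with 15.9 (4.14 in replicate 2) that is nearest to Gm23212. Both genes also had a stronger optimal peak within 1 kb, with 22.2 at Zfas1 and 17.3 at Gas5. The rule leaves these out because they also lie within 1 kb of a coding start. All of these signals were below the median of the optimal list, 38.5.

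Of 38 annotated genes in a list of well-known noncoding RNAs, 9 had such a peak, 2 shared one with a coding start and 27 had none; the share over all noncoding genes was 1.67%. The lists hold well-studied genes, whose expression in this tissue was not measured here. The 1.67% includes 12713 pseudogenes at 0.527%, while lincRNA genes stood at 2.85% and other types at 2.23%. Every annotated transcript start was used, and the number of starts per gene was not matched between these lists and all genes. Besides those above, Dleu2 had 3 peaks within 1 kb, the strongest with 44.8 (21.9 and 19.5), nearest to Gm27972. Neat1, which builds the paraspeckle, had 3 with 22.6 at most (14.4 and 7.28), each nearest to another annotated noncoding gene. Of 48 blood miRNA genes 4 had such a peak, and 44, with Mir144 and Mir451a of the erythroid cluster among them, had no optimal peak within 1 kb of the hairpin start. Of all 2196 miRNA genes 1.5% had such a peak. Of 14 liver miRNA genes 2 had one, Mir21a and Mir101b, and Mir122 of hepatocytes was not among them. A peak at the start of a distant host transcript is not counted by this rule.

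**Figure D5:**
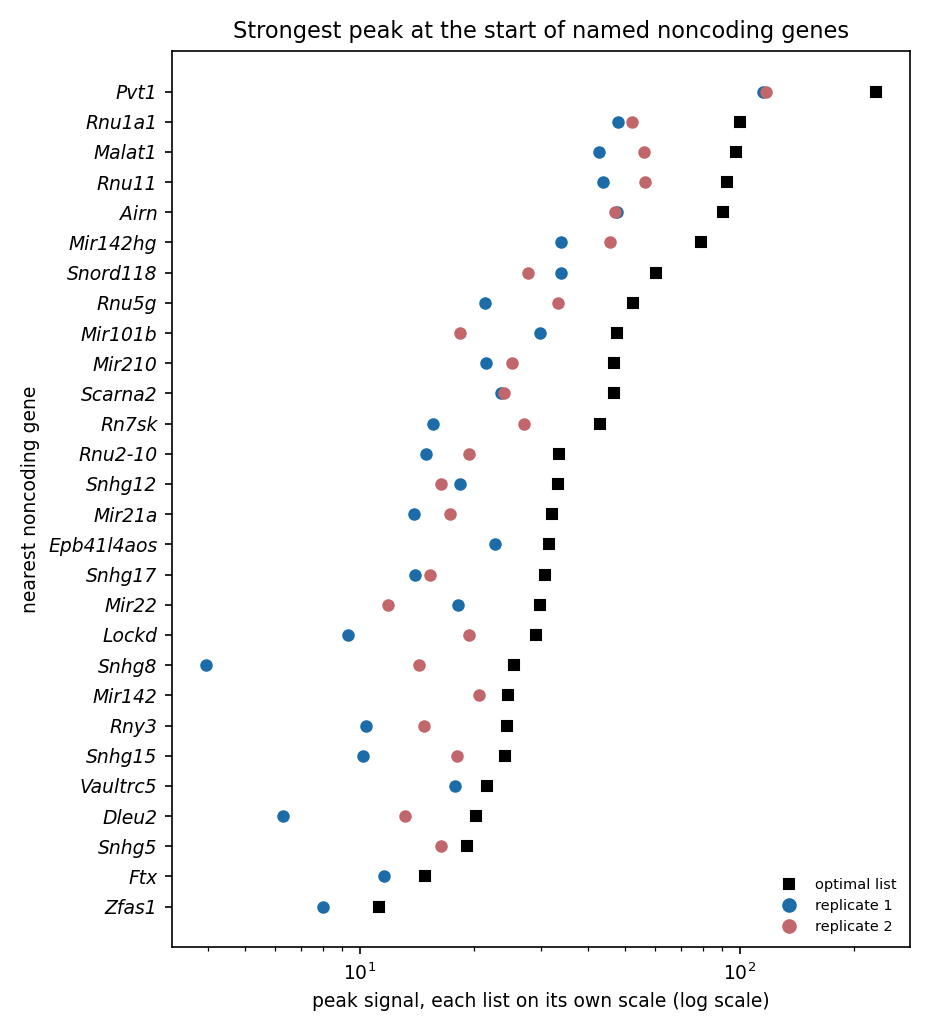
Signal of the strongest peak nearest to each of the named noncoding genes (log scale), in the optimal list (squares) and in replicates 1 and 2 (circles, absent where no summit lay within 100 bp); each list has its own scale. Pvt1, at 229, stands above the others.

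Of 49 annotated erythroid marker genes, 267 optimal peaks (1.57%) had one as the nearest coding gene, and of 30 hepatocyte markers 17 peaks (0.0997%), which is how the labelled tissue appears in these lists. Among the 550 peaks the numbers were 2 (0.364%) and 1 (0.182%). The erythroid genes were Lmo2, 69722 bp from the peak at the pseudogene Gm13876 (signal 103, with 47.6 and 56.4, and 2 GATA sites), and Gfi1b, 8190 bp from the peak at Gm22824. The Gm22824 peak had 14.2, no GATA site and no summit within 100 bp in replicate 2, though it was in the conservative list. The hepatocyte gene was Hnf4a. The megakaryocyte gene Gp9 lay 2004 bp from the peak at Gm43904 (162, with 60.6 and 99.9), and 1 of the 550 peaks (0.182%), beside 0.0469% of all optimal peaks, was nearest to a gene of that list. None was nearest to the 6 macrophage (0.00587% of all optimal peaks) or 6 endothelial markers (0.0176%). The share of cells of each type in the tissue and the binding per cell cannot be told apart in these bulk libraries.

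At the limits of the rule, the member farthest from its noncoding start was a second peak at Gm43121 (998 bp, signal 32.6), and the closest peak left out lay 1002 bp from Gm15897 (23.0). The one nearest to a coding start was at 4933429H19Rik, 1029 bp from Sec62 (22.1), and a peak at Gm10138, 981 bp from Ivns1abp (8.70), was left out. These 4 were weak to middling peaks, below the median of the optimal list.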

How the data were processed

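EP300 ChIP-seq was measured in 2 libraries of pooled fetal mouse liver. The starting point was the authors' deposited narrowPeak lists on mm10: 300000 peaks for each library, 300000 pooled, 17055 optimal and 15728 conservative peaks filtered by the irreproducible discovery rate. The signal that the authors deposited for each peak is their peak caller's number, never negative and on the scale of its own list. Each library's list came from its own alignments and 1 control file, per the file listings deposited with the libraries. Which aligner, peak caller and thresholds were used, and how reads with several matches were treated, is not given in the sources used here.

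Of the optimal peaks, 12 off the autosomes and X were left out. Summits were compared with every transcript start in GENCODE vM21, with Python 3.11.15, pandas 2.3.3, NumPy 2.4.6 and SciPy 1.17.1. Ties in distance between types went to lincRNA, antisense, miRNA, pseudogene and other, in that order. A library supported a peak when it had a summit within 100 bp. Motifs on both strands were looked for in the 201 bases of GRCm38 centred on the summit, and the shares over all optimal peaks use the same window. The letters searched are given in the text, with CCAAT for the CCAAT box. Repeat content was read from soft-masked bases, and exact copies of the 31 bases at each summit were counted in the genome. Intervals are 95% Wilson or Newcombe intervals and cover counting error only. The peaks of 1 list share their libraries and are not replicates.

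Genes were named by rule: the 5 with the strongest peaks per type, all nearest miRNA genes, the listed genes with such a peak in 5 lists, and the peaks at the limits; 1 antisense gene under this rule is not reported here. Other genes are named to say where a peak lies or were added after their values were seen. The set of peaks and the lists were chosen with earlier results of these data known. The alternatives were windows of 500 bp and 2.5 kb, 1 start per gene, no pseudogenes or TEC genes, the conservative list, peaks above the median signal, the top peaks of each library alone, a summit distance of 25 bp and a motif window of 50 bp. A further alternative, without peaks that have a stronger neighbour within 500 bp, was chosen after seeing the data. The scripts were tested on simulated data with planted summits and motifs.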

Additional observations from a re-analysis of the deposited data

How the results depend on the processing

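Of 98 recomputed values, 63 stayed within the interval or library spread of the reported one, 34 moved and 1, the signal ratio with a window of 2.5 kb, reversed. The reported values were 3.23% of optimal peaks, 68.9% with a GATA site, 35.5% inside coding genes, 29.5% at lincRNAs, 81.8% in both libraries and a median signal 0.946 times that of the list. A window of 500 bp gave 2.37% of peaks, 62.6% with a GATA site, 78.2% in both libraries and a signal ratio of 0.864. A window of 2.5 kb gave 5.69%, 75.6%, 85.4% and 1.04, with 20.8% at pseudogenes against 12.2%, so that the median signal was then above that of the list. With 1 start per gene the values were 3.53%, 63.1%, 77.6% and 0.886, with 47.3% inside coding genes and 23.9% at lincRNAs. Without pseudogenes and TEC genes they were 2.44% of peaks, 63.6% with a GATA site, 29.4% inside coding genes and 39.5% at lincRNAs. Among optimal peaks above the median signal, 85.8% had a GATA site, 98.5% were in both libraries and the ratio was 0.984. Leaving out 1 library at a time gave ratios from 0.943 to 0.994. Library summits within 25 bp gave 50.2% in both, a motif window of 50 bp gave 60.0% with a GATA site, and leaving out peaks close to a stronger one gave 86.3% in both libraries. The rise of the GATA share from the nearest to the farthest distance bin moved beyond its interval in 0 of 9 alternatives. The cause of these shifts was not tested, and no paired analysis was possible because the study has 1 group. Without read totals, depth cannot be set beside the weak peaks.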

Other observations

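Some listed genes had a peak in the pooled list that is not in the optimal list. The strongest were at Snhg1 (pooled signal 45.8, rank 7324), Mirt1 (27.1, rank 11628) and the U3 gene Rnu3b1 (25.3, rank 12338). Bloodlinc, an erythroid long noncoding RNA, had 16.2 (rank 18010) and the imprinted H19 had 15.7 (rank 18477). Mir144 and Mir451a had no peak within 1 kb in the pooled list either.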
